A study of Homo sapiens with 18 samples.

Results

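The V1 sector of the vacuolar H+-ATPase (V-ATPase) is represented here by 8 genes, ATP6V1A, ATP6V1B2, ATP6V1C1, ATP6V1D, ATP6V1E1, ATP6V1F, ATP6V1G1 and ATP6V1H. They were chosen by name, through the RefSeq transcript that labels each row of the count lists, and are 8 of the 20802 genes listed. All 8 passed the minimum of more than 100 counts over all libraries and so belong to the 10213 genes tested. The cells were RKO, an established human line from a colorectal carcinoma, which received siRNA at 30 nM and were harvested 72 h afterwards. Each of the 6 groups had 3 replicates, 18 libraries in all. Tsg101 depletion used siTsg101#1 or siTsg101#2, Vps28 depletion used siVps28#1 or siVps28#2, and siCtrl#1 and siCtrl#2 were nontargeting siRNAs. TSG101 and VPS28 encode subunits of ESCRT-I, a complex that sorts ubiquitinated membrane proteins into endosomes for lysosomal degradation. The study asked how loss of ESCRT-I affects lysosomes and the transcription that responds to them. Every group received lipid transfection and came from the same line, so no untransfected cells are part of the comparison.

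The V-ATPase pumps protons into lysosomes and other acidic compartments. Its V1 sector lies in the cytosol and hydrolyses ATP, and its V0 sector lies in the membrane and carries the protons. In V1, subunits A and B form the head, D and F form the central rotor, E and G form the peripheral stalks, C joins the stalks to V0, and H regulates activity and keeps V1 from hydrolysing ATP when it is detached. V1 can leave V0 and return to it, which is one way in which cells set pump activity. The MiT-TFE transcription factors, which include TFEB and TFE3, bind E-box motifs of the CLEAR type in the promoters of many lysosomal genes, V-ATPase genes among them.

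Because of this link, promoter windows from 250 bases before to 50 bases after the annotated start were searched on both strands for CACGTG and for the longer TCACGTGA, which contains it. RefSeq windows on GRCh38.p14 were given for 4 members, ATP6V1D, ATP6V1E1, ATP6V1F and ATP6V1G1. No window was given for ATP6V1A, ATP6V1B2, ATP6V1C1 or ATP6V1H, so whether they hold a motif was not examined. Of the members searched, only ATP6V1G1 held either motif, and its window held both. Among 27305 genes with a window, 8.77% held CACGTG and 1.18% held TCACGTGA. Among 10 V0 and accessory genes with a window, 3 held CACGTG, and in 1 of these, ATP6V0D1, it lay within TCACGTGA. The 2 windows with the longer motif are shown in part, with TCACGTGA in capitals. CACGTG begins 58 bases before the start of ATP6V1G1 (chr9:114587674-114587753, plus strand) and 59 bases before that of ATP6V0D1 (chr16:67481174-67481253, minus strand).
ATP6V1G1: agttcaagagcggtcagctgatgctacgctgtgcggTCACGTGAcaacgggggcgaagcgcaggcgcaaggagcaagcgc
ATP6V0D1: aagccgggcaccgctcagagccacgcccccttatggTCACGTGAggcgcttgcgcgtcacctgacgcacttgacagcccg
These matches describe letters in a window and say nothing of binding in these cells. In the comparison of the 4 on-target siRNAs with siCtrl#1, described next, neither gene passed the test, with log2 fold changes of 0.32 (SE 0.16, adjusted p = 0.164) for ATP6V1G1 and 0.30 (SE 0.12, adjusted p = 0.0674) for ATP6V0D1. ATP6V0D1 was called higher with siTsg101#1 alone (0.48, SE 0.15, adjusted p = 0.0169), and ATP6V1G1 was called against siCtrl#2 (0.50, adjusted p = 0.0411).

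The libraries held 2561790 to 7466916 reads on genes. In the siTsg101 libraries TSG101 stood at 2.49 to 4.99 normalized CPM (counts scaled to library size), against 74.5 to 167 elsewhere. In the siVps28 libraries VPS28 stood at 3.48 to 7.78, against 65.1 to 112 elsewhere, so every library matched its label in the gene targeted. These levels do not tell siCtrl#1 from siCtrl#2, or the 2 siRNAs against 1 target from each other. Of 5 epithelial markers, EPCAM, KRT8 and KRT18 were counted in every library, whereas CDH1 had no read and KRT19 had 1 read in all. Of the intestinal markers, the transcription factor CDX2 had 71 to 213 counts per library, whereas VIL1 had 6 reads and CDX1 had 1 read in all. The leukocyte markers PTPRC and CD3E had no read. CD68, a lysosomal membrane protein that other cell types also make, had 1674 to 9991 counts. Fibroblast and endothelial markers summed to 50 reads or fewer per gene over all libraries. Among the control libraries, siCtrl#2 replicate 1 was the lowest for ATP6V1B2, ATP6V1C1, ATP6V1D, ATP6V1E1 and ATP6V1F and the highest for ATP6V1G1, and results that rest on it are given with and without it.

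All 8 V1 genes had a positive log2 fold change when the 4 on-target siRNAs were averaged and compared with siCtrl#1, and 4 of them rose at an adjusted p under 0.05. ATP6V1H, the regulatory subunit, rose 1.87-fold (log2 fold change 0.90, SE 0.19, adjusted p = 0.00117). ATP6V1B2, the nucleotide-binding B subunit, rose 1.55-fold (log2 0.63, SE 0.14, adjusted p = 0.00265). ATP6V1C1 rose 1.42-fold (log2 0.51, SE 0.14, adjusted p = 0.00981), and ATP6V1E1, a stalk subunit, rose 1.31-fold (log2 0.39, SE 0.13, adjusted p = 0.0344). Of all genes tested, 12.2% were called higher in this comparison, and 49.7% had a positive value. Their median log2 fold change was -0.0034, against 0.43 over the 8 members. ATP6V1H and ATP6V1B2 also reached 1.5-fold, a rule that 8.56% of all genes passed in the same direction. No member was called lower, against 11.5% of all genes. In such bulk libraries, a change in the number of cells that express a gene cannot be told apart from a change in RNA per cell. Among the markers, CD68 was higher in the same comparison by 0.89 on the log2 scale (SE 0.14, adjusted p = 6.87e-05) and EPCAM by 0.65 (SE 0.23, adjusted p = 0.0381), while KRT8 stood at -0.69 (SE 0.20, adjusted p = 0.0127). EPCAM also differed between the nontargeting siRNAs, at 1.02 for siCtrl#2 minus siCtrl#1 (SE 0.27, adjusted p = 0.0473). Against siCtrl#2 none of the 3 was called, with values of 0.29 for CD68 (adjusted p = 0.150), -0.37 for EPCAM (adjusted p = 0.217), which changed sign, and -0.38 for KRT8 (adjusted p = 0.218). KRT18, not called against siCtrl#1 (-0.32, adjusted p = 0.0665), was called lower against siCtrl#2 (-0.36, adjusted p = 0.0486). Against the mean of both, CD68 (0.59, adjusted p = 1.6e-04), KRT8 (-0.53, adjusted p = 0.0127) and KRT18 (-0.34, adjusted p = 0.0108) were called. EPCAM was not (0.14, adjusted p = 0.562). The part of these marker differences in the V1 values was not tested. The V1 calls depended on which nontargeting siRNA was the reference, and the values for each are given after those of the single siRNAs.

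**Figure D1:**
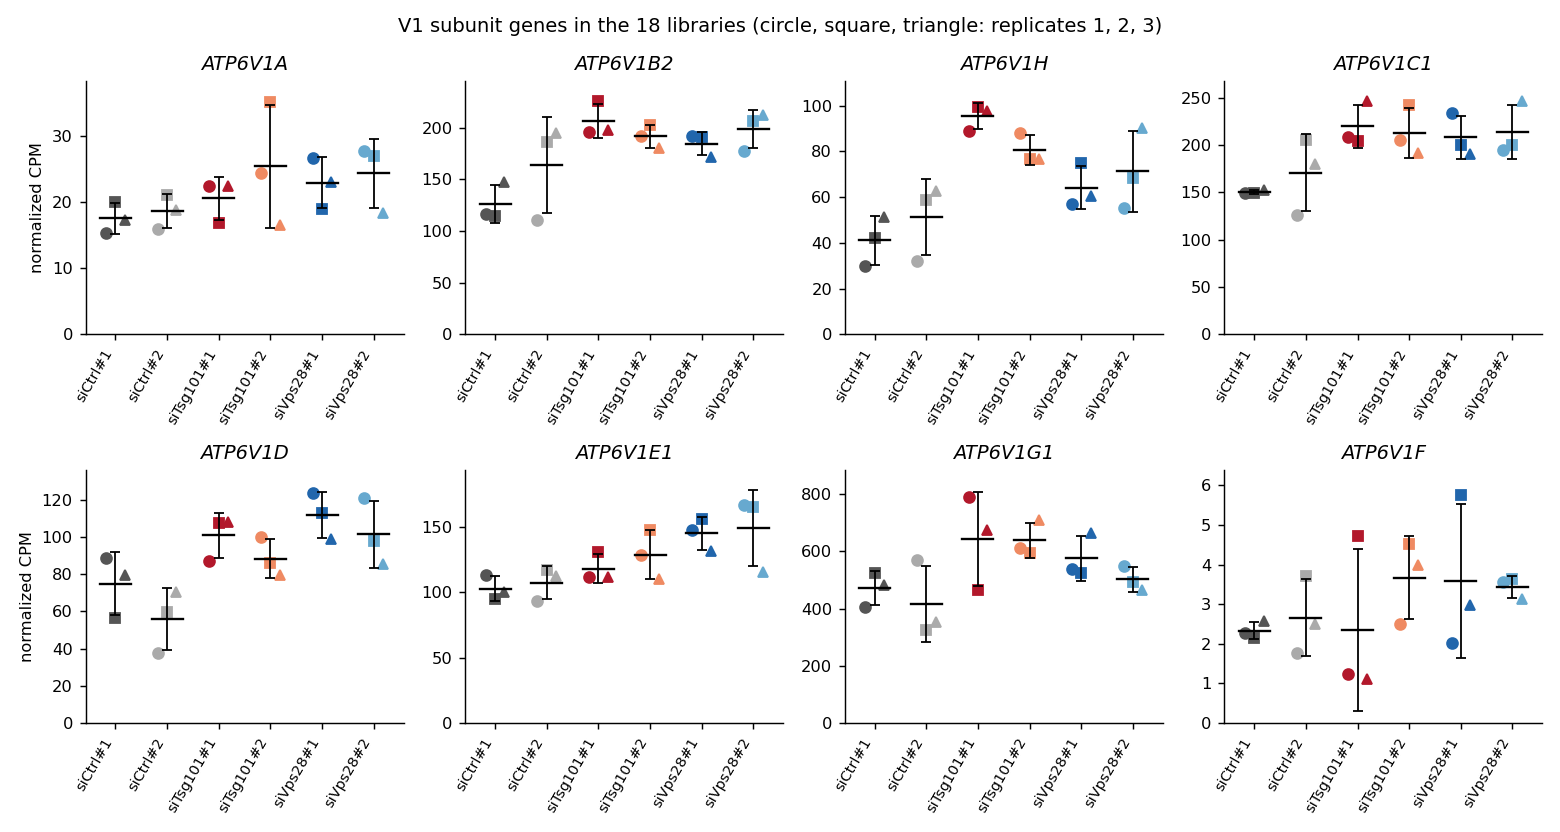
Normalized CPM (vertical axes, each from 0) of the 8 V1 genes in the 6 siRNA groups, with 1 point per library (circle, square and triangle for replicates 1, 2 and 3), the group mean as a line and the SD (n = 3) as bars. All 12 on-target libraries lie above the 3 siCtrl#1 libraries for ATP6V1B2, ATP6V1C1 and ATP6V1H, and for no member do they all lie above the 6 control libraries. The share of all genes that meets these rules was not determined, so this describes the members only.

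The head of V1 was measured through ATP6V1A, the catalytic subunit, and ATP6V1B2. ATP6V1B2 stood at 116, 115 and 147 normalized CPM in siCtrl#1 replicates 1, 2 and 3, and at 111, 186 and 195 in siCtrl#2. The siTsg101#1 libraries had 196, 225 and 198, and the siTsg101#2 libraries 192, 203 and 180. Vps28 depletion gave 192, 191 and 171 (siVps28#1) and 177, 206 and 212 (siVps28#2). All 12 on-target libraries thus lay above siCtrl#1, but 6 of 12 did not exceed the highest siCtrl#2 library. ATP6V1A was measured with 55 to 226 counts per library. The lowest group mean was that of siCtrl#1, 17.6 ± 2.30 normalized CPM (SD, n = 3), and the highest was that of siTsg101#2, 25.4 ± 9.32. Of the on-target libraries, 8 of 12 lay above every control library. Its log2 fold change of 0.41 (SE 0.20, 95% confidence interval 0.0057 to 0.82) did not pass the test (adjusted p = 0.135), and it passed in none of 27 alternative analyses.

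ATP6V1H had the widest separation. It stood at 29.9, 42.1 and 51.3 normalized CPM with siCtrl#1, and at 32.1, 58.9 and 62.6 with siCtrl#2. Libraries of siTsg101#1 had 88.8, 99.4 and 97.6, and those of siTsg101#2 had 88.0, 76.8 and 76.8. Libraries of siVps28#1 had 56.9, 74.9 and 60.7, and those of siVps28#2 had 55.1, 68.6 and 90.1. The 6 siTsg101 libraries lay above all 6 control libraries, while 3 of the 6 siVps28 libraries overlapped with siCtrl#2. Each on-target library exceeded the siCtrl#1 library of its own replicate number in 12 of 12 cases, and the siCtrl#2 library of its number in 11 of 12. Its group means ran in order from siCtrl#1 (41.1 ± 10.7) through siCtrl#2, siVps28#1, siVps28#2 and siTsg101#2 to siTsg101#1 (95.3 ± 5.67, SD, n = 3). Of the 5 neighbouring pairs in that order, the libraries failed to overlap in 1, siTsg101#2 and siTsg101#1. For each of the other 7 members, all neighbouring groups overlapped. The share of all genes with such a pair was not determined.

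ATP6V1C1 was the most even of the members in siCtrl#1, with 149, 150 and 153 normalized CPM. With siCtrl#2 it was spread over 126, 205 and 180. The siTsg101#1 libraries had 208, 204 and 246, and the siTsg101#2 libraries 205, 243 and 191. Values with siVps28#1 were 234, 200 and 191, and with siVps28#2 195, 200 and 246. The on-target libraries did not overlap with siCtrl#1, but 7 of 12 did not exceed the highest siCtrl#2 library, which was replicate 2.

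The peripheral stalks are built from E and G subunits. ATP6V1E1 had 114, 94.97 and 100 normalized CPM with siCtrl#1 and 93.5, 117 and 113 with siCtrl#2. After Tsg101 depletion it had 112, 131 and 112 (siTsg101#1) and 129, 148 and 111 (siTsg101#2). After Vps28 depletion it had 148, 157 and 131 (siVps28#1) and 167, 166 and 116 (siVps28#2). The 4 on-target libraries that did not exceed all controls included replicate 3 of siVps28#2, while all 3 siVps28#1 libraries did exceed them. This call was made in 20 of 27 alternative analyses, the fewest of the 4. It was lost without siCtrl#1 replicate 1 (adjusted p = 0.0511), replicate 2 (0.162) or replicate 3 (0.122), without siVps28#1 replicate 2 (0.0525), and without siVps28#2 replicate 1 (0.0506). ATP6V1G1, with 406, 523 and 484 normalized CPM in siCtrl#1 and 570, 325 and 355 in siCtrl#2, was not called (log2 0.32, 95% confidence interval -0.018 to 0.65). Its on-target libraries ran from 464 to 791 with a median of 573, and 6 of 12 lay above every control library.

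The rotor subunits D and F were not called against siCtrl#1. ATP6V1D had 89.0, 56.2 and 79.8 normalized CPM with siCtrl#1 and 37.6, 59.7 and 70.7 with siCtrl#2. Its on-target libraries ran from 79.6 to 124 with a median of 99.4, and 8 of 12 lay above all controls, where siCtrl#1 replicate 1 was the highest. The log2 fold change was 0.42 (SE 0.16, 95% confidence interval 0.076 to 0.76, adjusted p = 0.0697), and the call was made without siCtrl#2 replicate 1 (0.41, adjusted p = 0.0335). ATP6V1F was read through a target with 3 to 29 counts per library, and its log2 fold change of 0.44 had a 95% confidence interval from -0.35 to 1.22 (adjusted p = 0.443). That interval leaves the direction undetermined. The row is named by 1 of the gene's RefSeq transcripts, and whether the target reads its other transcript was not known.

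With single siRNAs, ATP6V1B2, ATP6V1C1 and ATP6V1H rose with siTsg101#1 (3 of 8 members, against 13.8% of all genes called higher) and with siTsg101#2 (3 of 8, against 11.6%). With siVps28#2 these genes and ATP6V1E1 rose (4 of 8, against 8.12%). With siVps28#1 no member passed (0 of 8, against 5.38%). All 8 values were positive, against 51% of all genes, and 5 had an unadjusted p under 0.05. The share of all genes with such an unadjusted p was not determined, here or in the comparisons below. DESeq2 called 2 members with siVps28#1, and the fit with the replicate number as a block called 3, ATP6V1B2 (log2 0.55, adjusted p = 0.0287), ATP6V1E1 (0.49, adjusted p = 0.0337) and ATP6V1H (0.66, adjusted p = 0.0273). By the block, 6.83% of all genes were called higher with siVps28#1. Without the block no member was called with all 4 siRNAs, a rule met by 2.92% of all genes, and ATP6V1B2, ATP6V1C1 and ATP6V1H were each called with 3. With the block, ATP6V1B2 and ATP6V1H were called with all 4, a rule then met by 3.8% of all genes.

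For ATP6V1H the log2 fold changes were 1.21 (SE 0.23) and 0.96 (SE 0.22) for siTsg101#1 and siTsg101#2, and 0.64 (SE 0.23) and 0.79 (SE 0.22) for siVps28#1 and siVps28#2. ATP6V1B2 was more even over the siRNAs, from 0.55 (SE 0.18) with siVps28#1 to 0.71 (SE 0.18) with siTsg101#1. ATP6V1C1 ran from 0.47 (SE 0.17) with siVps28#1 to 0.55 (SE 0.17) with siTsg101#1. The only negative value of a member was that of ATP6V1F with siTsg101#1, at -0.05 (SE 0.50).

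Single libraries decided several of these calls. The shares of all genes called in these fits are not given here, so the counts describe the members only. With siTsg101#1, ATP6V1C1 was lost and 2 members were called without siCtrl#1 replicate 1, siCtrl#1 replicate 2 or siTsg101#1 replicate 3. With siTsg101#2, ATP6V1H alone was called without siCtrl#1 replicate 1, siCtrl#1 replicate 2 or siTsg101#2 replicate 2, and ATP6V1C1 was lost without siTsg101#2 replicate 1 or siCtrl#1 replicate 3. With siVps28#1, 5 members were called without siCtrl#2 replicate 1, 2 without siCtrl#1 replicate 3 or siVps28#2 replicate 3, and 1 without siCtrl#2 replicate 3. With siVps28#2, 1 member was called without siCtrl#1 replicate 1 or replicate 2, and 2 without siCtrl#1 replicate 3 or any 1 of the siVps28#2 libraries. ATP6V1A was called with siTsg101#2 without its replicate 3, and ATP6V1G1 with siTsg101#1 without its replicate 2.

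**Figure D2:**
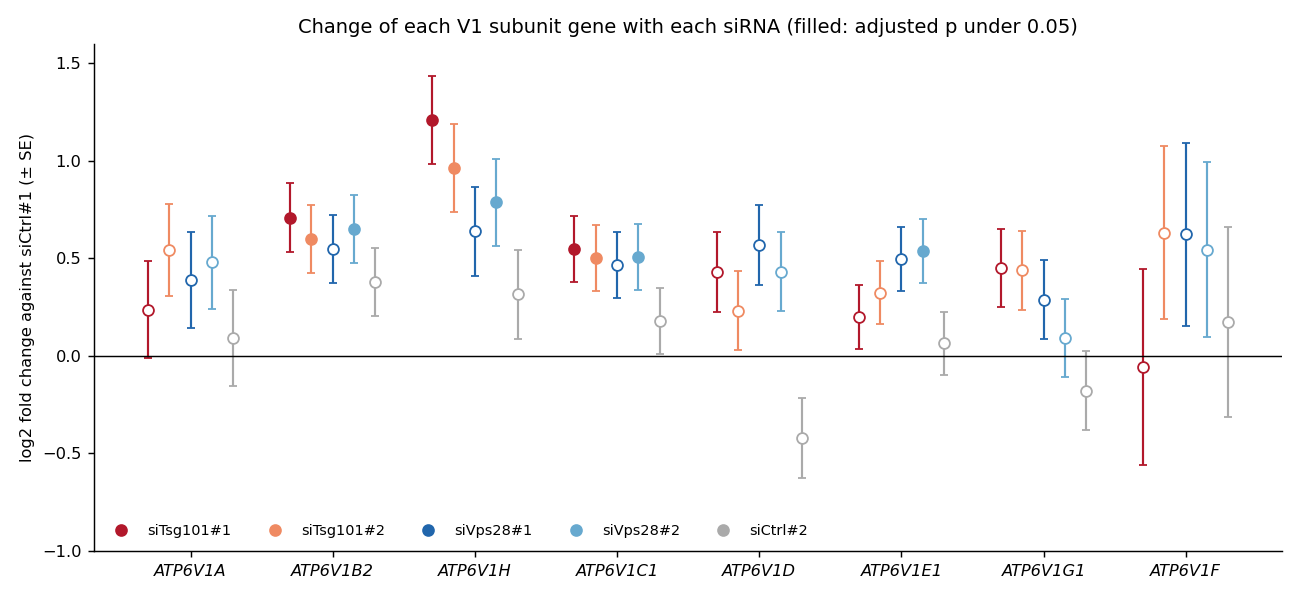
Log2 fold change against siCtrl#1 (vertical axis, bars are ± SE of the fit) of each V1 gene with each of the 4 on-target siRNAs and with siCtrl#2. Filled points passed the adjusted p of 0.05, which ATP6V1B2, ATP6V1C1 and ATP6V1H did with siTsg101#1, siTsg101#2 and siVps28#2, ATP6V1E1 with siVps28#2, and none with siCtrl#2.

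The background to these values is the difference between the nontargeting siRNAs. No member was called between siCtrl#2 and siCtrl#1 by edgeR (0 of 8, against 2.16% of all genes in either direction), nor by DESeq2, and 1 had an unadjusted p under 0.05. This was ATP6V1B2, at a log2 difference of 0.38 (SE 0.18, 95% confidence interval 0.016 to 0.74, adjusted p = 0.314). Without siCtrl#2 replicate 1 its difference was 0.59 (SE 0.15, adjusted p = 0.0288), which passed. ATP6V1D lay lower with siCtrl#2, at -0.42 (SE 0.21, adjusted p = 0.345), and ATP6V1H higher, at 0.32 (SE 0.23, adjusted p = 0.567).

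Against siCtrl#2 in place of siCtrl#1, 3 members were called higher, where 8.33% of all genes were. They were ATP6V1D (log2 0.84, SE 0.17, adjusted p = 0.00137), ATP6V1H (0.58, SE 0.18, adjusted p = 0.0304) and ATP6V1G1 (0.50, SE 0.16, adjusted p = 0.0411). ATP6V1B2 (0.25, adjusted p = 0.241), ATP6V1C1 (0.32, adjusted p = 0.109) and ATP6V1E1 (0.33, adjusted p = 0.0954) were not called. ATP6V1H was thus the member called against either reference. Without siCtrl#2 replicate 1, a comparison added after the data were seen, its difference from siCtrl#2 was 0.34 (SE 0.18, adjusted p = 0.219), and 2 members passed, ATP6V1D (0.62, adjusted p = 0.0174) and ATP6V1G1 (0.79, adjusted p = 0.00354), where 7.3% of all genes were called higher. ATP6V1B2 then differed from siCtrl#2 by 0.03 (SE 0.13, adjusted p = 0.898). Against the mean of both nontargeting siRNAs, 6 members were called higher, where 15% of all genes were. ATP6V1H (0.74), ATP6V1D (0.63), ATP6V1B2 (0.44), ATP6V1C1 (0.42), ATP6V1G1 (0.41) and ATP6V1E1 (0.36) passed, at adjusted p from 3.29e-04 to 0.0169. The same 6 passed without siCtrl#2 replicate 1. ATP6V1A (0.37, adjusted p = 0.0696) and ATP6V1F (0.35, adjusted p = 0.394) did not pass. The values of all 8 members were positive against each of these references.

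**Figure D3:**
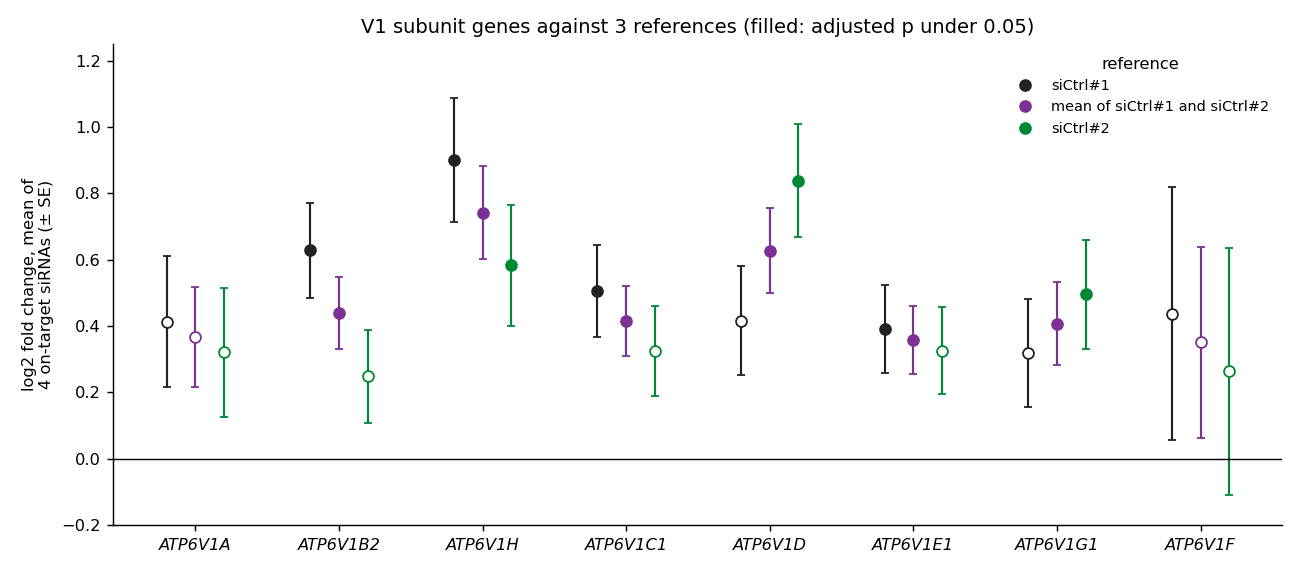
Log2 fold change (vertical axis, bars are ± SE of the fit) of each V1 gene, averaged over the 4 on-target siRNAs, against siCtrl#1, the mean of both nontargeting siRNAs, or siCtrl#2. Filled points passed the adjusted p of 0.05, and their number was 4, 6 and 3, with ATP6V1B2, ATP6V1C1 and ATP6V1E1 losing the call against siCtrl#2 and ATP6V1D and ATP6V1G1 gaining it.

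The 2 depletions were compared directly, in a contrast that uses no control library. No member was called between Tsg101 and Vps28 depletion by edgeR or DESeq2 (0 of 8, against 11.8% of all genes in either direction), and 2 had an unadjusted p under 0.05. ATP6V1H was 0.37 higher on the log2 scale after Tsg101 depletion (SE 0.16, 95% confidence interval 0.054 to 0.69, adjusted p = 0.123). Blocking on the replicate number gave 0.39 (SE 0.13, adjusted p = 0.0469), and with no filter on low counts it was 0.37 (adjusted p = 0.0495), so that both of these fits called it. ATP6V1E1 stood at -0.25 (SE 0.11, 95% confidence interval -0.49 to -0.018, adjusted p = 0.160), with its higher values after Vps28 depletion. For ATP6V1B2 and ATP6V1C1 the differences were 0.05 (95% confidence interval -0.20 to 0.31) and 0.04 (-0.21 to 0.28).

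**Figure D4:**
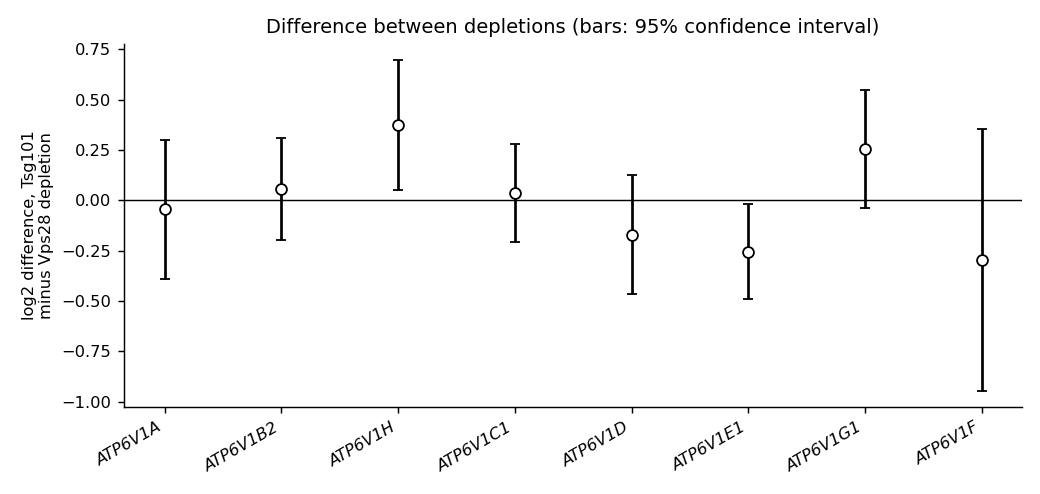
Log2 difference between Tsg101 and Vps28 depletion (vertical axis) for each V1 gene, each depletion being the mean of its 2 siRNAs, with 95% confidence intervals as bars. Open points did not pass the adjusted p of 0.05, and the intervals of ATP6V1H (0.054 to 0.69) and ATP6V1E1 (-0.49 to -0.018) do not include 0.

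The siRNAs against 1 target were also compared directly. With 8 genes and the shares of all genes given here, an absence of calls does not show that such siRNAs had equal effects. Between siTsg101#1 and siTsg101#2, edgeR called 0 of 8 (against 7.95% of all genes in either direction), DESeq2 called none, and none had an unadjusted p under 0.05. Without siTsg101#1 replicate 2, ATP6V1F was called lower with siTsg101#1 (adjusted p = 0.0461). Between siVps28#1 and siVps28#2, edgeR called 0 of 8 (against 0.48%), DESeq2 called none, and again none had an unadjusted p under 0.05. The 95% confidence intervals for ATP6V1H were -0.20 to 0.69 between the siTsg101 groups and -0.60 to 0.31 between the siVps28 groups.

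The members did not move as 1 unit from library to library. Over the 18 libraries, Pearson correlations of log2 CPM between pairs of members ran from -0.31 to 0.90, with a median of 0.38, and 27 of 28 were positive. These libraries share the siRNA groups, and the values are a description. ATP6V1B2, ATP6V1C1 and ATP6V1H were the most alike, with r of 0.82 to 0.90, and ATP6V1D and ATP6V1E1 had r of 0.74. ATP6V1G1 was the least like the others, with r of -0.31 with ATP6V1F and 0.04 to 0.32 with the rest. Relative to the mean log2 CPM of the other 7 members in the same library, ATP6V1H stood at -0.60 in siCtrl#1 and -0.33 in siCtrl#2. It stood at 0.31 and -0.05 in siTsg101#1 and siTsg101#2, and at -0.40 and -0.26 in siVps28#1 and siVps28#2. Its mean over the on-target libraries was 0.50 above that with siCtrl#1, whereas the other members shifted by -0.20 to 0.17. Against siCtrl#2 the order was different, with a shift of 0.50 for ATP6V1D, 0.22 for ATP6V1H and -0.28 to 0.11 for the others.

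The 5 genes outside the V-ATPase lists listed next followed the mean standardized log2 CPM of the 8 members most closely among 10091 compared. They were RIPK2 (r = 0.960), an NF-kB signalling kinase, CCSER2 (0.943), ENTPD7 (0.927), a nucleotide-hydrolysing enzyme, CYRIB (0.924), a regulator of the actin cytoskeleton, and LACTB (0.921), a mitochondrial protein. This profile was below 0 in all 6 control libraries and above 0 in all 12 on-target libraries, so genes chosen for following it had to differ between these groups, and their fold changes are not given.

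The rest of the V-ATPase was measured beside V1. Of 12 V0 and accessory genes listed, 9 were tested. In the mean of the 4 on-target siRNAs, 2 were called higher (against 12.2% of all genes), with a median log2 fold change of 0.19. Of the 9 values, 8 were positive (against 49.7% of all genes), and 4 had an unadjusted p under 0.05, a share not determined for all genes. The number called higher was 4 of 9 with siTsg101#1 (against 13.8% of all genes) and 3 of 9 with siTsg101#2 (against 11.6%). It was 1 of 9 each with siVps28#1 (against 5.38%) and siVps28#2 (against 8.12%). The 2 genes called in the mean encode the a subunit of V0, which holds part of the proton path and directs the pump to particular membranes. ATP6V0A1 stood at 49.8, 33.2 and 55.7 normalized CPM with siCtrl#1, at 85.1, 77.2 and 93.5 with siCtrl#2, and at 76.9 to 144 in the on-target libraries. It rose by 1.16 on the log2 scale against siCtrl#1 (SE 0.17, adjusted p = 2.49e-05), but it also rose with siCtrl#2 (0.87, SE 0.20, adjusted p = 0.0186), and against siCtrl#2 it was not called (0.29, adjusted p = 0.223). ATP6V0A2, with 12 to 94 counts per library, stood at 3.08 to 4.92 with siCtrl#1 and 3.03 to 5.45 with siCtrl#2. Its on-target libraries ran from 5.03 to 14.6, and some siVps28 libraries lay below the highest siCtrl#2 library. The log2 fold change in the mean of the 4 on-target siRNAs was 1.07 (SE 0.25, adjusted p = 0.00267). Of the single siRNAs, siTsg101#1 and siTsg101#2 gave a call. Those against Vps28 did not, at 0.74 for siVps28#1 (adjusted p = 0.141) and 0.57 for siVps28#2 (adjusted p = 0.215). Against siCtrl#2 the mean was 0.80 (adjusted p = 0.0213), a call lost without siCtrl#2 replicate 1. Of the other V1 isoforms, ATP6V1B1 had 1 read and ATP6V1G2 29 reads over all libraries, ATP6V1C2 and ATP6V1G3 had none, and ATP6V1E2 was not analysed here.

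Of 12 assembly factors and regulators, 11 were tested. In the 4 on-target siRNAs, averaged and compared with siCtrl#1, none was called higher and 2 were called lower. Of all genes tested, 12.2% were called higher and 11.5% lower in this comparison. ROGDI, a part of the complex that returns V1 to V0, fell by 0.70 on the log2 scale (SE 0.18, adjusted p = 0.00657), and VMA22 (CCDC115), an assembly factor of V0 in the endoplasmic reticulum, fell by 0.57 (SE 0.16, adjusted p = 0.0129). Neither was called against siCtrl#2, at -0.39 (adjusted p = 0.169) and -0.42 (adjusted p = 0.0922). ROGDI was not called without siCtrl#1 replicate 2, nor VMA22 without siCtrl#1 replicate 1 or 2. The median over the 11 was 0.0024. With single siRNAs, MEAK7 was called higher with siTsg101#1 (0.74, adjusted p = 0.00483) and siVps28#2 (0.56, adjusted p = 0.0408), DMXL1 was called higher with siTsg101#2 (0.92, adjusted p = 0.0252), and NCOA7 was called lower with siTsg101#1 (-0.52, adjusted p = 0.0415). Of the MiT-TFE factors, TFEB (0.53, SE 0.20, adjusted p = 0.0552), TFE3 (0.18, SE 0.13, adjusted p = 0.351) and MITF (-0.22, SE 0.37, adjusted p = 0.721) were tested and none passed in the mean of the 4 on-target siRNAs. TFEB was called higher with siTsg101#2 alone (1.00, SE 0.23, adjusted p = 0.00375). Their transcript levels do not report on the activity of the proteins.

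**Figure D5:**
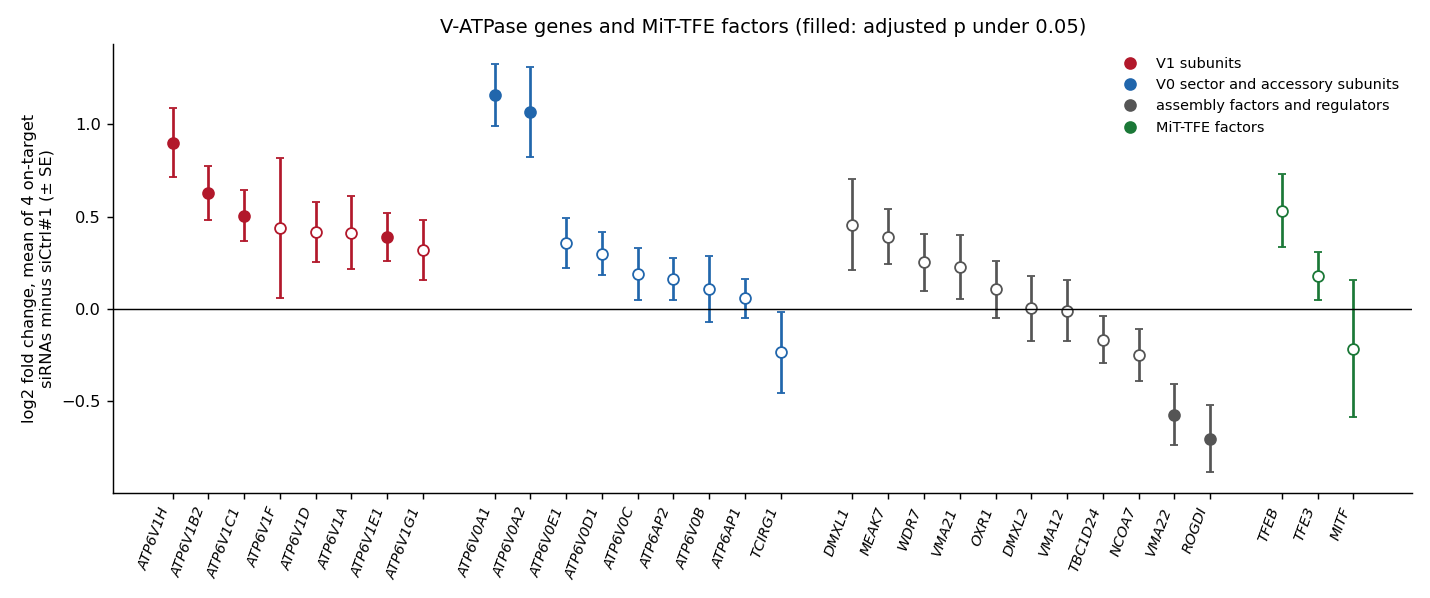
Log2 fold change (vertical axis, bars are ± SE of the fit) against siCtrl#1, averaged over the 4 on-target siRNAs, for the V1 genes, 9 V0 and accessory genes, 11 assembly factors and regulators and 3 MiT-TFE factors. All 8 V1 values lie above 0 with 4 filled (adjusted p under 0.05). Of 9 V0 and accessory values, 8 lie above 0 and 2 are filled. Of 11 assembly factors, 2 are filled, both below 0. Of all genes tested, 12.2% were called higher and 11.5% lower.

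On GRCh37 the V1 genes lie on 6 chromosomes. ATP6V1A lies at chr3:113465617-113530903 on the plus strand, ATP6V1D at chr14:67761088-67826982 and ATP6V1E1 at chr22:18074902-18111515, both on the minus strand. ATP6V1F lies at chr7:128502910-128505901 and ATP6V1G1 at chr9:117349986-117361195, both on the plus strand. ATP6V1B2 (chr8:20054892-20084330) and ATP6V1C1 (chr8:104033291-104085279) on the plus strand and ATP6V1H (chr8:54628103-54756118) on the minus strand share chromosome 8. The panel reads 1 short stretch of each transcript, so levels of different genes cannot be compared. Where a member was set against the mean of the others, only its shift between groups can be read. The limits that follow cover whole transcripts. ATP6V1F has 157 exonic bases opposite exons of KCP, and 31.3% of its transcript recurs in stretches of 50 bases in transcripts of other genes. For ATP6V1E1 the share was 22.5%, in the pseudogenes ATP6V1E1P1 and ATP6V1E1P3, and for ATP6V1A 4.7%, so these counts are less certain. ATP6V1B2, ATP6V1C1, ATP6V1D, ATP6V1G1 and ATP6V1H shared none.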

How the data were processed

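The authors amplified 1 short target per transcript (Ion AmpliSeq Transcriptome), read it by Ion Proton sequencing, mapped reads with TMAP 5.0.4 onto hg19 panel targets, ran HTSeq-count 0.6.0 and deposited whole-number counts without normalization. Strand setting and amplicon positions were not known here. Amplified reads carry no molecular identifiers, and each test allows for the spread between libraries in addition to counting error. Targets with more than 100 counts over all libraries were kept (10632), and 419 noncoding ones were left out. Reads on no feature were 48.23% to 49.07% per library and stayed out of library sizes. The 6 groups were fitted in 1 model with edgeR 4.0.16 (R 4.3.3, TMM, quasi-likelihood test, Benjamini-Hochberg over all genes tested), and normalized CPM are TMM-scaled. The scripts were tested on simulated data. DESeq2 1.42.0 and the other alternatives are described in the closing section. SE is the fitted standard error, and calls need an adjusted p under 0.05.

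The sample titles end in a replicate number, which was taken here to pair the libraries. The main fit did not use it, and the replicate block did. Deviations from group means correlated at a mean r of 0.145 over 45 same-number pairs (range -0.148 to 0.389). The mean over other pairs, -0.073, follows nearly from that value, because each group was centred on its own mean. Per the study's description, replicates were independent experiments. All 8 members are named whatever their values. Other V-ATPase genes were to be named where they passed the test in the mean of the 4 on-target siRNAs or between depletions. ATP6V0D1 (for its motif) and ATP6AP2, MEAK7, DMXL1 and NCOA7 (for calls in other comparisons) are named outside this rule, after their values were seen. Members and lists were chosen with earlier results of these data known.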

Additional observations from a re-analysis of the deposited data

Results flagged for a closer look

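Tested directly, 5 other genes of the V-ATPase and MiT-TFE lists differed between the depletions or between siRNAs against 1 target, with edgeR's quasi-likelihood test and Benjamini-Hochberg adjustment. After Tsg101 depletion, compared with Vps28 depletion, ATP6V0A2 was higher by 0.82 on the log2 scale (SE 0.19, adjusted p = 0.0048), TFEB by 0.57 (SE 0.16, adjusted p = 0.0249) and ATP6V0C, the proteolipid ring subunit, by 0.41 (SE 0.13, adjusted p = 0.0343). TFE3 differed in the other direction, at -0.46 (SE 0.12, adjusted p = 0.0104). Between siTsg101#1 and siTsg101#2, ATP6AP2, the accessory subunit also known as the prorenin receptor, differed by -0.79 (SE 0.14, adjusted p = 9.58e-04). No V1 member was among these genes. Between the depletions, 2 of 9 V0 and accessory genes, 0 of 11 assembly factors and 2 of 3 MiT-TFE factors were called. Of all genes, 11.8% were called there in either direction. Between the siTsg101 siRNAs the counts were 1 of 9, 0 of 11 and 0 of 3, against 7.95% of all genes. The causes were not tested.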

How the results depend on the processing

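All 8 members kept a positive value in the mean of the 4 on-target siRNAs under every alternative that gave one. ATP6V1H was called in 26 of 27, ATP6V1B2 and ATP6V1C1 in 25, ATP6V1E1 in 20, ATP6V1D in 6, ATP6V1G1 in 4, ATP6V1A in 0 and ATP6V1F in 0 of 26. The count of 4 was 2 with the 1.5-fold minimum, and leaving out single libraries gave 2 to 6. That range includes siCtrl#2 or the mean of both as reference without siCtrl#2 replicate 1 (2 and 6), settings chosen after seeing the data. For siTsg101#1 the count of 3 was 5 against the mean of both nontargeting siRNAs, and 2 to 4 without single libraries. For siTsg101#2 the latter gave 1 to 4. For siVps28#1 the count of 0 was 2 with DESeq2, 3 with no low-count filter, 1 with at least 10 counts in every library, 3 with the replicate block, 1 against siCtrl#2, 2 against the mean of both, 4 with only the libraries compared, and 0 to 5 without single libraries. For siVps28#2 the count of 4 was 1 against siCtrl#2, 2 with only the libraries compared, 2 with the 1.5-fold minimum, and 1 to 4 without single libraries. Between the depletions the count of 0 was 1 with no low-count filter and 1 with the replicate block. Without single libraries it was 0 to 1 for siCtrl#2 against siCtrl#1 and 0 to 1, lower, between the siTsg101 siRNAs. The replicate block changed no other call, and the causes were not tested. For most of these settings the share of all genes called is not given, so a changed count is not a result about the members. ATP6V1F (3 to 29 counts per library) and ATP6V1A (55 to 226) have the least depth.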

Other observations

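The members called with most siRNAs, ATP6V1B2, ATP6V1C1 and ATP6V1H, lie on chromosome 8, a shared feature noticed after their values were seen. Of 362 tested genes placed on that chromosome, 15.7% were called higher and 15.5% lower in the mean of the 4 on-target siRNAs, with a median log2 fold change of 0.02. Over all tested genes 12.2% were called higher and 11.5% lower.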
